A study of Mus musculus with 6 samples.

Results

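The genes described here are the mouse zinc finger genes whose symbol is Zfp followed by a number. They were taken from the sense-strand read counts of 6 RNA-seq libraries. Of 368 such rows among 24411 genes, 4 were left out by name: the mRNA-decay factors Zfp36, Zfp36l1, Zfp36l2 and Zfp36l3, whose fingers are of another kind. A further 109 had fewer than 60 reads summed over the 6 libraries, 7 of them with no read. The remaining 255 genes, chosen by this summed read count, are the members, and the count itself is given as a description only. It ran from 60 to 3530 reads with a median of 213. Just inside the limit stood Zfp551 with 60 reads, Zfp566 with 60 and Zfp428 with 61. Just outside stood Zfp143 with 59, Zfp711 with 59 and Zfp558 with 58.

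The cells were primary microglia, the resident macrophages of the brain. They came from the brains of 3-day-old ICR mice, 12 brains to a pool, and more than 92% carried the myeloid surface protein CD11b. All cultures received FTY720 (fingolimod), a multiple sclerosis drug that resembles sphingosine and whose phosphorylated form binds receptors for sphingosine-1-phosphate. Its concentration was 1 µM and the exposure 4 h. In 3 libraries that was the only agent, and in the other 3 the cells also received bacterial lipopolysaccharide (LPS), the ligand of Toll-like receptor Tlr4, at 10 ng/ml. Both groups therefore carry FTY720, and the contrast shows the effect of adding LPS in its presence. The FTY720 libraries held 2729532, 3454647 and 2971304 reads in genes, and the FTY720 and LPS libraries 2800738, 2529031 and 2431775. Rn45s, Lars2 and Mir6236, which collect ribosomal RNA, took 47.9%, 59.0% and 28.8% of the gene reads in the FTY720 libraries. With LPS they took 38.2%, 38.6% and 44.9%. FTY720 replicate 2 was thus the highest and FTY720 replicate 3 the lowest.

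A C2H2 zinc finger is a short loop in which 2 cysteines and 2 histidines hold a zinc ion, and fingers placed in tandem read DNA along the major groove. Many of the proteins also carry a KRAB box, which recruits the co-repressor Trim28. Trim28 in turn brings the histone methyltransferase Setdb1 and heterochromatin proteins, a system known for silencing retroelements and for keeping imprints. Zfp genes without a KRAB box are of many kinds and include activators, ubiquitin ligases, RNA-binding proteins and ribosome assembly factors.

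The promoters below belong to the members with the largest rises and falls for which a sequence was at hand, 2 of each. They are shown because these genes moved in opposite directions. Each runs from 250 bases before to 50 bases after the RefSeq start on GRCm38.p6, written 5′ to 3′ on the gene's strand. For Zfp131 and Zfp800, which have 2 listed starts, the first is shown. Capitals mark the GC box GGGCGG and the ETS core CGGAAG, or their reverse complements. Zfp131 lies at chr13:119790683-119790982 on the minus strand, Zfp800 at chr6:28397956-28398255 on the minus strand, Zfp810 at chr9:22307589-22307888 on the minus strand and Zfp229 at chr17:21733474-21733773 on the plus strand.
Zfp131: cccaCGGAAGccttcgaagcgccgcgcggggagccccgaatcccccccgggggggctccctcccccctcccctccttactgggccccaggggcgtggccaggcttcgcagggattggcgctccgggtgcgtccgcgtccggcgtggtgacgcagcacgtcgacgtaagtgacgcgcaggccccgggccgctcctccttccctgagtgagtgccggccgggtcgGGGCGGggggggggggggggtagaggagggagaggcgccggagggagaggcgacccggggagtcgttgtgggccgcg
Zfp800: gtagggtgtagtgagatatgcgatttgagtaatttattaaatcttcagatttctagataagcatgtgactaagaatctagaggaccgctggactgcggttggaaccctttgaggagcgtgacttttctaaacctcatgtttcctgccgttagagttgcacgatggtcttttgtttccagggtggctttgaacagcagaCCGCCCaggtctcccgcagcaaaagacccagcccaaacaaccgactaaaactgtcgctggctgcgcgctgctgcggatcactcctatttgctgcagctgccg
Zfp810: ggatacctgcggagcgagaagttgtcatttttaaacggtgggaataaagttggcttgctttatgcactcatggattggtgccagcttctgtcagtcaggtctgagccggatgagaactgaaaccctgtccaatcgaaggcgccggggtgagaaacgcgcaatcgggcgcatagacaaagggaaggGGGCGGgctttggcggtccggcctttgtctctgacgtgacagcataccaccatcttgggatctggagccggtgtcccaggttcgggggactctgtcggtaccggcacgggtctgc
Zfp229: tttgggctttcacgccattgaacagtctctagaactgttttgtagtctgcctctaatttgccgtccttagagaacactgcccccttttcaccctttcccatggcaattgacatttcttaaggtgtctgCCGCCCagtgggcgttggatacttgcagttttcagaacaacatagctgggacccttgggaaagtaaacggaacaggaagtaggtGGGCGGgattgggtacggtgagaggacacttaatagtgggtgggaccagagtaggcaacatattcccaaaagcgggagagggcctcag
Zfp131, which rose, held 1 GC box, 1 ETS core and 36 CpG dinucleotides in this window. Zfp800, which also rose, held 1 GC box, no ETS core and 14 CpG dinucleotides. Zfp810, which fell, held 1 GC box and 20 CpG dinucleotides, and Zfp229, which also fell, held 2 GC boxes and 8 CpG dinucleotides.

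Adding LPS lowered more Zfp genes than it raised. Counts were scaled with TMM factors to CPM, a gene's reads relative to the scaled size of its library, and tested with edgeR's quasi-likelihood test, with a call at a Benjamini-Hochberg adjusted p under 0.05 over all 10124 genes tested. Of the 255 members 252 passed the low-count filter, and Zfp174, Zfp456 and Zfp526 did not. With LPS 27 of the 252 were called higher (10.7%), 80 lower (31.7%) and 145 were not called. Of the 80, 16 had passed the low-count filter through the FTY720 libraries alone and so had to be lower. No member passed through the libraries with LPS alone. Over all genes, 322 lower calls came through FTY720 alone and 130 higher calls through LPS alone. Over all genes tested the calls were nearly even, 23.3% higher and 22.7% lower. The median log2 fold change was -0.28 in the members and -0.04 over all genes. Of the called members, 4 were higher and 41 lower by at least 2-fold, where 8.49% of all genes were called higher and 9.59% lower to that extent. The 3 values of one group lay wholly above the 3 of the other for 35 members that were higher with LPS (13.9%, against 27.1% of all genes). They lay wholly below for 88 members (34.9%, against 26.9%). The tested members include 19 that passed the filter through FTY720 alone (7.54%, against 3.92% of all genes). The 2-fold counts and the shares without overlap are therefore descriptions too. The groups overlapped for 10 of the 107 called members.

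How the calls fell over levels of expression depended on the scaling. With TMM factors, 34 of 81 members under 3 log2 CPM were lower and 1 higher (42.0% lower, against 28.2% of all genes at that level). Of these 81, 19 passed the low-count filter through the FTY720 libraries alone, and 16 of the 19 were among the lower calls, whereas no member passed through the libraries with LPS alone. A gene that passes in this way had to be lower with LPS, so the count in this band is a description; of all genes at that level 18.9% passed through FTY720 alone and 5.65% through LPS alone. Between 3 and 4 log2 CPM, 27 of 77 were lower and 5 higher (35.1% lower, against 27.5%). From 4 to 5, 17.7% of 62 members were higher and 16.1% lower, against 17.6% and 23.0% of all genes. From 5 to 6, 38.1% of 21 were higher and 28.6% lower, against 30.0% and 20.8%. Among the 11 members at 6 log2 CPM or more, 2 were higher and 3 lower, whereas 54.6% of all genes at that level were higher and 11.1% lower.

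The median log2 fold change of all genes ran from -0.37 under 3 log2 CPM to 0.37 at 6 or more. With this trend removed from the scaling, 36 members were called higher (14.3%) and 52 lower (20.6%), with a median of -0.16. All genes then had 20.2% higher and 19.1% lower, so the members' share of lower calls came close to the background, while their share of higher calls stayed below it. The bands also changed order: lower calls took 22.2% of the members under 3 log2 CPM, 18.2% from 3 to 4, 11.3% from 4 to 5, 33.3% from 5 to 6 and 54.5% at 6 or more. In that top band 6 of 11 members were then lower and none was higher by edgeR, with a median of -0.34, against 26.9% lower and 27.0% higher of all genes. By both scalings, 48 members were called lower and 24 higher.

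**Figure D1:**
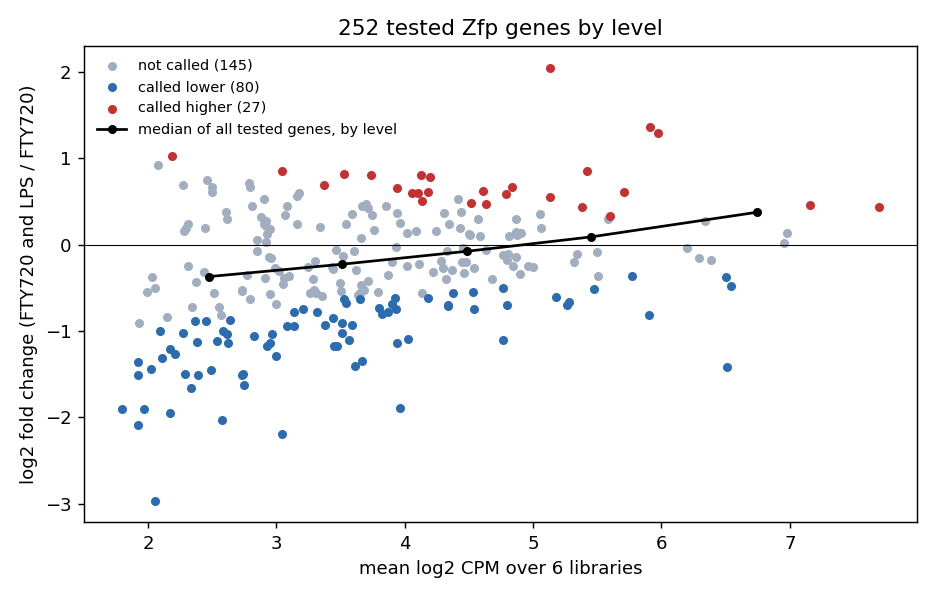
Each point is 1 of the 252 tested Zfp genes, with the mean log2 CPM over 6 libraries on the x axis and the log2 fold change (FTY720 and LPS over FTY720) on the y axis. The black line joins the medians of all tested genes in 5 bands of level. With TMM factors most of the 80 lower calls lie at the left, and the line climbs from -0.37 to 0.37.

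**Figure D2:**
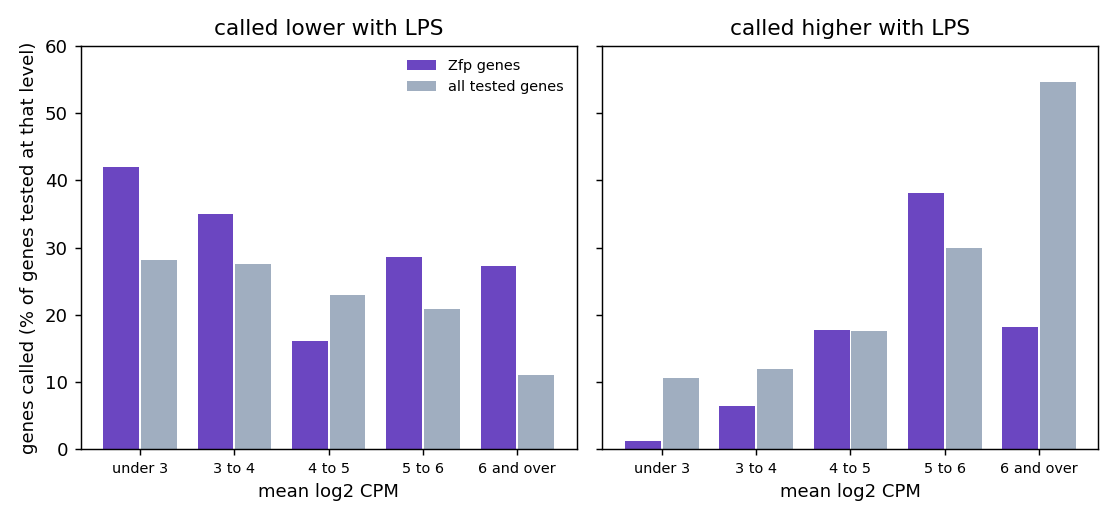
Bars give the percentage of genes called lower (left) and higher (right) with LPS, by TMM scaling, in 5 bands of mean log2 CPM, for the Zfp genes and for all tested genes. Lower calls took 42.0% of the members in the lowest band and 28.2% of all genes there. In that band 16 of the members' lower calls were of genes that passed the low-count filter through the FTY720 libraries alone. In the highest band, 54.6% of all genes but 18.2% of the 11 members were higher.

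As part of all transcripts the members took less of the library with LPS. Leaving out Rn45s, Lars2 and Mir6236, they held 1.05%, 1.03% and 1.08% of gene reads in the FTY720 libraries and 0.765%, 0.744% and 0.663% with LPS. Every library with LPS lay below every library without it. After TMM scaling, which sets the middle genes of the libraries level, the summed CPM overlapped: 4992, 4883 and 5389 with FTY720, and 4938, 4890 and 4448 with LPS. The members' median depth was 36, 38 and 58 reads with FTY720 and 27, 26 and 19 with LPS, and no member was at 0 reads in any library.

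The largest fall was that of Zfp395, a DNA-binding protein known for binding the huntingtin gene promoter. Its level was 8.01, 10.3 and 9.18 CPM with FTY720 and 1.12, 0.423 and 2.00 CPM with LPS, a 7.8-fold difference (log2 fold change -2.96 ± 0.43 SE, adjusted p = 5.68e-06, n = 3 per group, edgeR). The LPS values of Zfp395 rest on 3, 1 and 4 reads. This gene passed the low-count filter through the FTY720 libraries alone and so had to be lower with LPS. That every library with LPS was far below every library without it is therefore a description. Its close relative Zfp704 was one of the most abundant Zfp mRNAs and was singled out after its values were seen. It was at 148, 158 and 139 CPM with FTY720 and 59.3, 54.6 and 52.1 CPM with LPS (-1.42 ± 0.12 SE, adjusted p = 2.31e-09, edgeR). The groups lay well apart in this gene at a depth of 1507 reads with FTY720 and 392 with LPS.

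Zfp608, which in thymocytes represses the Rag genes, was at 17.0, 20.4 and 12.2 CPM with FTY720 and 4.85, 2.96 and 2.5 CPM with LPS (-2.19 ± 0.32 SE, adjusted p = 6.04e-06, edgeR). Zfp710 was at 27.4, 33.7 and 25.4 CPM with FTY720 and 8.21, 5.92 and 9.01 CPM with LPS (-1.90 ± 0.23 SE, adjusted p = 3.97e-07, edgeR). Neither gene had overlapping groups, and neither protein matched the sequence pattern used to find KRAB boxes.

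The 10 falls named here were the largest among called members whose groups did not overlap, so separate groups in them are a description. The other 7 of these 10 falls were KRAB zinc finger genes with 7 to 17 fingers: Zfp810, Zfp229, Zfp667, Zfp324, Zfp937, Zfp128 and Zfp169. Zfp229 was at 9.34, 10.3 and 13.2 CPM with FTY720 and 4.10, 2.12 and 1.5 CPM with LPS (-2.03 ± 0.35 SE, adjusted p = 6.32e-05, edgeR). Zfp810 was at 7.68, 5.01 and 5.89 CPM with FTY720 and 1.12, 1.69 and 1.5 CPM with LPS (-2.08 ± 0.42 SE, adjusted p = 0.00033, edgeR). Zfp169 was at 11, 9.68 and 11.1 CPM with FTY720 and 4.10, 2.96 and 3.00 CPM with LPS (-1.63 ± 0.31 SE, adjusted p = 0.000175, edgeR). In all 3 genes the libraries with LPS lay below those without. Zfp810 passed the low-count filter through the FTY720 libraries alone and so had to be lower with LPS. Its values with LPS rest on a few reads each, and its separate groups are a description. Zfp667, Zfp324, Zfp937 and Zfp128 fell by 1.96, 1.90, 1.90 and 1.66 on the log2 scale, also without overlap. Zfp937 shares 31.5% of its 50-base windows with transcripts of other genes, so reads from close copies may have been dropped or misplaced in it.

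**Figure D3:**
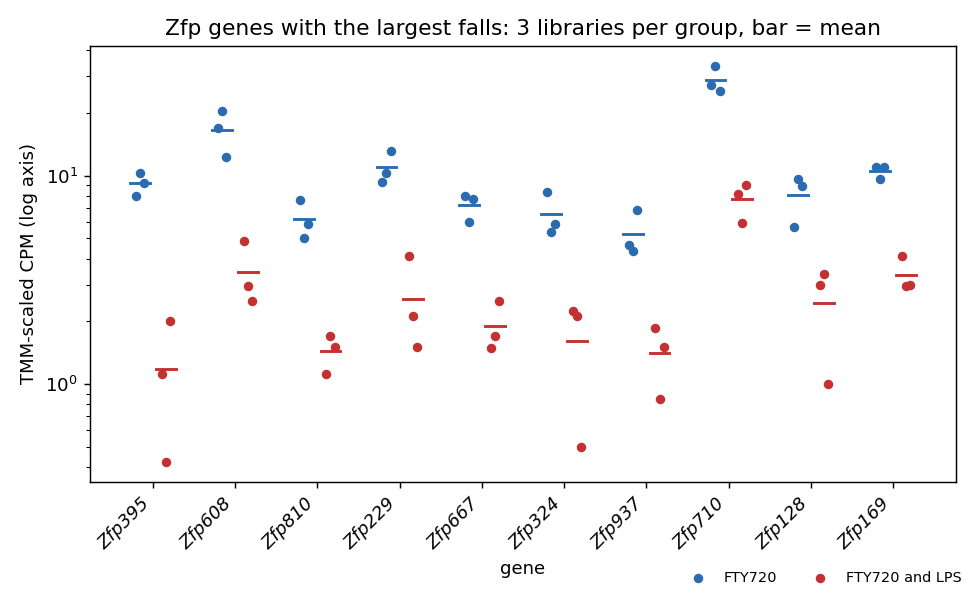
Points are TMM-scaled CPM on a log axis for the 10 Zfp genes with the largest falls, 3 libraries per group, and bars are group means. In each gene the 3 FTY720 libraries lie above the 3 libraries with LPS, from Zfp395 with a 7.8-fold difference to Zfp169 with a 3.10-fold one. The genes were chosen for groups without overlap. Zfp395 and Zfp810 passed the low-count filter through the FTY720 libraries alone and so had to be lower with LPS.

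Few Zfp genes rose strongly, and 3 stood out. Zfp703, a transcriptional co-repressor known as an oncogene in breast cancer, was at 17.4, 20.0 and 13.7 CPM with FTY720 and 58.9, 63.9 and 87.6 CPM with LPS, 4.14-fold higher (2.05 ± 0.18 SE, adjusted p = 3.13e-09, edgeR). Zfp131, which joins a BTB domain to its fingers, was at 32.0, 34.1 and 45.2 CPM with FTY720 and 95.9, 102 and 90.6 CPM with LPS (1.36 ± 0.14 SE, adjusted p = 6.47e-08, edgeR). Zfp800, a transcription factor known from gut endocrine cells, was at 35.0, 35.4 and 48.7 CPM with FTY720 and 95.1, 111 and 89.6 CPM with LPS (1.30 ± 0.15 SE, adjusted p = 1.98e-07, edgeR). All 9 values with LPS in these genes were above all 9 without it, a description, since the genes were chosen for groups without overlap. The calls held under each of the 16 alternatives. They also held with total library size alone as the scaling, under which only 3 members were called higher.

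The 10 rises named here were the largest among called members whose groups did not overlap, so their separation follows from the choice. A further KRAB member, under 3 log2 CPM, was called higher at 1.03 but was left out by that condition. The other 7 of these 10 rises were smaller, from 0.69 to 0.85 on the log2 scale, and lost their calls under total library size. Zfp330, a nucleolar protein, was at 30.0, 27.4 and 36.7 CPM with FTY720 and 58.9, 62.6 and 49.6 CPM with LPS (0.85 ± 0.16 SE, adjusted p = 0.000106, edgeR). Zfp568, the KRAB protein that represses a placental Igf2 transcript in the embryo, was at 10.7, 17.0 and 12.9 CPM with FTY720 and 22.0, 24.5 and 23.5 CPM with LPS (0.79 ± 0.21 SE, adjusted p = 0.00364, edgeR). Both had groups that did not overlap. The remaining genes, also without overlap, were Zfp39 at 0.85, Zfp850 at 0.82, Zfp697 at 0.80, Zfp747 at 0.80 and Zfp948 at 0.69. Of these, Zfp39, Zfp850, Zfp747 and Zfp948 have a KRAB box, and Zfp747 shares 36.9% of its windows with other genes. Zfp39, Zfp850 and Zfp948 lost their calls with DESeq2. Zfp850 also lost it without FTY720 replicate 1 (0.67) and without FTY720 and LPS replicate 2 (0.59). Zfp948 lost it without FTY720 replicate 1 (0.66) or 2 (0.58) and without FTY720 and LPS replicate 1 (0.76) or 2 (0.59), and also with upper-quartile factors (0.56), with no low-count filter (0.67) and after thinning to equal reads (0.58).

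**Figure D4:**
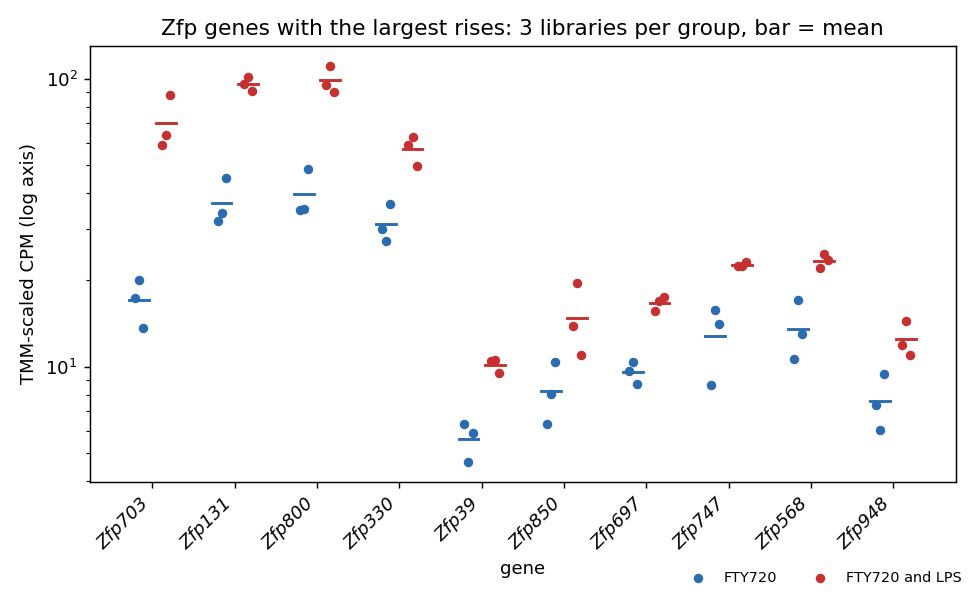
Points are TMM-scaled CPM on a log axis for the 10 Zfp genes with the largest rises, 3 libraries per group, and bars are group means. The genes were chosen for groups without overlap. Zfp703, Zfp131 and Zfp800 reach 58.9 CPM or more in each library with LPS, and the other 7 genes show smaller gaps.

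Per kilobase of exon, the 8 highest mean levels over both groups were those of Zfp655, Zfp871, Zfp869, Zfp445, Zfp706, Zfp131, Zfp800 and Zfp830. With FTY720 they stood between 8.04 and 21.8 CPM per kb, where the median member was at 2.67. Zfp655, which binds the signalling protein Vav1, rose from 131, 102 and 133 CPM to 181, 172 and 151 CPM (0.46 ± 0.12 SE, adjusted p = 0.00453, edgeR). Zfp871, the KRAB gene with the most reads of all members, rose from 180, 172 and 181 CPM to 261, 247 and 213 CPM (0.44 ± 0.11 SE, adjusted p = 0.00257, edgeR). The groups were separate in both genes. With the trend of all genes at their level removed the values were 0.05 and -0.09, and neither passed (adjusted p = 0.736 and 0.528, edgeR). Under total library size both calls were lost as well, at 0.12 in each gene. Zfp445, a KRAB protein that guards imprints but did not match the KRAB pattern, was not called at 0.13 ± 0.13 SE, though it was without FTY720 replicate 3 (0.27). Zfp869, Zfp706 and the splicing factor gene Zfp830 were not called either, at 0.14, -0.04 and 0.12. The signs of Zfp445, Zfp706, Zfp830, Zfp869 and Zfp871 turned under at least 1 alternative.

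Among members with a known function in gene silencing, Zfp809, which recognises the primer binding site of murine retroviruses, was not called. It was at 17.4, 18.4 and 15.3 CPM with FTY720 and 14.2, 14.4 and 14.0 CPM with LPS (-0.25 ± 0.21 SE, adjusted p = 0.332, edgeR), groups that did not overlap but lay close. The imprint regulator Zfp57 had 21 reads in all, 20 with FTY720 and 1 with LPS, and was not a member. Zfp143, an activator of many housekeeping promoters, and the lineage factor Zfp521 also stayed under the limit, with 59 and 42 reads.

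Transcription factors without a KRAB box went both ways. Zfp281, known from pluripotent stem cells, rose from 42.4, 35.1 and 47.8 CPM to 68.6, 63.9 and 60.1 CPM (0.61 ± 0.14 SE, adjusted p = 0.00145, edgeR), though not under total library size (0.27). Zfp292 fell from 81.8, 79.1 and 76.0 CPM to 48.1, 49.9 and 35.5 CPM (-0.81 ± 0.14 SE, adjusted p = 6.79e-05, edgeR). Zfp423, a partner of early B-cell factors and a preadipocyte regulator, fell from 12.7, 9.35 and 9.18 CPM to 3.73, 4.65 and 5.51 CPM (-1.17 ± 0.30 SE, adjusted p = 0.00313, edgeR). None of these 3 genes had overlapping groups. Zfp318, which in B cells allows IgD expression, and Zfp384 fell by 0.67 and 0.70 on the log2 scale (adjusted p = 0.00104 and 0.000905, edgeR), and Zfp384 shares 13.1% of its windows. Zfp148 fell by 0.38 (adjusted p = 0.0251, edgeR), a call that was lost with DESeq2 and without any of 4 single libraries: FTY720 replicate 3 (-0.22) or any library with LPS (-0.37, -0.38 and -0.30). Zfp217, a co-repressor component, and Zfp335, a nuclear factor needed in neural progenitors, were not called at -0.26 and 0.10. Without 1 library Zfp217 ran from -0.53 to -0.09 and was not called in any of these fits, and the sign of Zfp335 turned under 4 alternatives.

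The p75 neurotrophin receptor interactor Zfp110 fell from 25.7, 22.7 and 26.8 CPM to 16, 17.3 and 12.5 CPM (-0.71 ± 0.20 SE, adjusted p = 0.00523, edgeR), with no overlap. Its relative Zfp369 was called lower at -0.67 ± 0.27 SE (adjusted p = 0.0427, edgeR), but its groups overlapped and the call was lost with the trend removed, with DESeq2 and without any of 4 single libraries. These were FTY720 replicate 1 (-0.57), FTY720 replicate 2 (-0.54), and FTY720 and LPS replicates 2 (-0.54) and 3 (-0.60).

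Some of the members named for their role have functions outside transcription. Zfp622, which helps to mature the large ribosomal subunit, rose from 15.4, 23.7 and 18.8 CPM to 25, 29.2 and 35.5 CPM (0.62 ± 0.20 SE, adjusted p = 0.0132, edgeR). The groups did not overlap, yet the call was lost without FTY720 replicate 1 (0.49), without FTY720 and LPS replicate 3 (0.51) and under total library size (0.32). Zfp598, the ubiquitin ligase that marks collided ribosomes, was not called at 0.38 ± 0.20 SE (adjusted p = 0.123, edgeR), though it was without FTY720 and LPS replicate 1 (0.56). Zfp451, a SUMO ligase, was at 42.4, 43.1 and 42.4 CPM with FTY720 and 53.7, 53.7 and 53.6 CPM with LPS (0.33 ± 0.14 SE, adjusted p = 0.049, edgeR). Its groups were separate, but the call was lost under 15 of the 16 alternatives, all but the fit without FTY720 replicate 3. The ubiquitin ligase Zfp91, which acts in the non-canonical NF-κB pathway, was at -0.53 ± 0.27 SE and not called (adjusted p = 0.113, edgeR). It was called lower with total library size (-0.83), with upper-quartile factors (-0.67), without FTY720 replicate 3 (-0.64) and without FTY720 and LPS replicate 3 (-0.78). The spindle factor Zfp207 and the RNA-binding protein Zfp106 were not called at -0.15 and -0.18, but both passed with the trend removed, at -0.38 and -0.43, and Zfp106 also without FTY720 replicate 3 (-0.32).

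The members were then split by what their proteins hold. A KRAB pattern was searched in the longest protein of each gene translated from GENCODE M21; it was found in 285 of 21584 protein-coding genes, 266 of them with at least 1 C2H2 finger. It misses divergent boxes, so genes without it may still be KRAB genes. Of the members, 131 matched and 121 did not, and for 3 no protein was at hand, all 3 of which were called lower. Of all genes tested, 23.3% were higher and 22.7% lower. Of the 130 tested KRAB members, 10 were higher (7.69%) and 43 lower (33.1%), and their median log2 fold change was -0.35. Of the 119 tested without the pattern, 17 were higher (14.3%) and 34 lower (28.6%), with a median of -0.19. The KRAB members were also the weaker expressed, with a median of 3.35 log2 CPM against 3.94. With the expression trend removed the classes came together: 18 higher and 25 lower of the KRAB members, 18 higher and 24 lower of the others, with medians of -0.16 and -0.15. Their lower shares, 19.2% and 20.2%, were then close to the 19.1% of all genes. Their higher shares, 13.8% and 15.1%, were below the 20.2% of all genes. KRAB genes that carry another name were few in these cells: 18 of 96 were tested, of which 7 were lower (38.9%) and none was higher. With the trend removed 2 of the 18 were lower (11.1%) and none was higher.

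The number of fingers ran up to 36 with a median of 10, at 12 in KRAB members and 7 in the others. In 6 members no finger of the searched spacing was found, Zfp703 and Zfp330 among them. Of 48 members with 1 to 5 fingers, 7 were higher and 15 lower, and of 73 with 6 to 10 fingers, 9 were higher and 18 lower. With 11 to 15 fingers 7 of 74 were higher and 24 lower, and with 16 or more 2 of 48 were higher and 18 lower. In order of finger number, lower calls took 31.25%, 24.7%, 32.4% and 37.5%, against 22.7% of all genes. Higher calls took 14.6% of the members with 1 to 5 fingers and 4.17% of those with 16 or more, against 23.3% of all genes, a difference that was not tested. With the trend removed these shares were 14.6% and 8.33%, against 20.2% of all genes. Lower calls then took 27.1%, 13.7%, 18.9% and 25% in order of finger number, against 19.1% of all genes. The 32 tested members with at least 10% of windows shared had 1 higher call and 7 lower ones (21.9%), near the 22.7% of all genes. The 218 below that had 26 higher (11.9%) and 71 lower (32.6%), against 23.3% and 22.7% of all genes.

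Many Zfp genes sit in runs of tandem copies. With gaps of at most 300000 bases between starts there were 13 runs of 4 or more members, holding 94 of the 253 members placed on GRCm38. In runs 8 of 93 tested members were higher (8.6%) and 27 lower (29.0%), with a median of -0.28. Outside them 19 of 157 were higher (12.1%) and 51 lower (32.5%), with a median of -0.27, beside 23.3% and 22.7% of all genes. With the trend removed the order of the higher shares turned, at 15.1% in runs and 14.0% outside, with 17.2% and 21.7% lower. The largest run, 18 KRAB members at chr13:67038596-67755228, had 6 lower and no higher call of 17 tested. The 6 members at chr6:47835661-48086593 had none. In the run at chr7:12804977-12974236 all 4 members were called lower: Zfp329, Zfp110, Zfp128 and Zfp324, with a median of -1.18. Zscan22, a SCAN zinc finger gene inside that interval, was lower as well, at 13.3, 12.0 and 11.3 CPM with FTY720 and 4.10, 5.08 and 4.51 CPM with LPS (-1.41 ± 0.28 SE, adjusted p = 0.000292, edgeR). Other genes in or beside the interval were not examined as a set. Beside it Trim28 was called higher (0.52), and Zscan18, Zfp446 and Zbtb45 did not pass the low-count filter. The call of Zfp329 (-0.69) was lost with the trend removed (-0.53), with DESeq2 and without FTY720 and LPS replicate 1 (-0.58). Neighbours in the run of 11 at chr7:29768552-30169750 went both ways, with 2 higher and 4 lower.

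Promoter sequences of 300 bases were matched for 210 members, 22 of them called higher, 61 lower and 124 tested but not called. The GC box, read on both strands, was found in 52.4% of the members, in 71.3% of all tested genes and in 38.2% of all genes in the table. It was in 16 of the 22 higher members (72.7%) and 27 of the 61 lower ones (44.3%). The ETS core was in 59.1% of the higher and 39.3% of the lower members, against 37.6% of tested genes. The letters TTCNNNGAA, the palindrome of STAT sites, were in 18.1% of the members, against 8.26% of tested genes and 9.55% of all. Within the members they were about as frequent in the higher (18.2%), lower (14.8%) and uncalled (19.4%) genes. GAAANNGAA, a core of interferon response elements, was in 7.62% of members and 8.86% of tested genes, and an NF-κB site in 3.33% and 6.31%. Where searched letters can overlap (GAAANNGAA and TTCNNNGAA), each was counted for itself. The median number of CpG dinucleotides was 17 in members, 22.5 in the higher ones and 23 in all tested genes. These are matches of letters and not tests.

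Of 34 co-repressor and heterochromatin genes, partners of KRAB proteins among them, 32 were tested. Of these 9 were higher and 9 lower, 28.1% each way and close to the 23.3% and 22.7% of all genes, with a median of -0.17. Trim28 rose from 95.2 ± 10.2 to 136 ± 10.6 CPM (SD, n = 3; 0.52 ± 0.12 SE, adjusted p = 0.00130, edgeR), a call lost under total library size (0.22) and with the trend removed (0.18). Setdb1 fell from 33.4 ± 4.91 to 19.8 ± 2.93 CPM (-0.74 ± 0.18 SE, adjusted p = 0.0021, edgeR). Both were singled out for their role after their values were seen. The largest changes were those of the histone chaperone gene Daxx (1.92 ± 0.21 SE), the maintenance DNA methyltransferase Dnmt1 (-1.39 ± 0.22 SE) and the chromatin remodeller Chd4 (1.38 ± 0.12 SE).

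Other zinc finger families are given for comparison, with no test between families. Of 33 tested Zbtb genes, whose proteins carry a BTB domain, 8 were higher (24.2%) and 11 lower (33.3%), with a median of 0.07, against 23.3% and 22.7% of all genes. With the trend removed 8 were higher and 5 lower, with a median of -0.03. The largest changes were Zbtb4 at -1.66, Zbtb14 at -1.47 and Zbtb46 at 1.41, whose call was lost with DESeq2, without FTY720 replicate 1 (0.97) and without FTY720 and LPS replicate 3 (1.23). Of 15 tested Zkscan and Zscan genes 7 were lower and none was higher by edgeR, with a median of -0.52 (6 lower and none higher with the trend removed), among them Zkscan8 at -0.96 and Zscan29 at -0.81. Of 16 tested Zc3h genes, whose CCCH fingers bind RNA, 7 were higher and none was lower, with a median of 0.34 (7 higher and 1 lower with the trend removed). The Regnase genes Zc3h12a and Zc3h12c rose by 1.94 and 1.73 on the log2 scale, and the antiviral gene Zc3hav1 by 1.30.

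**Figure D5:**
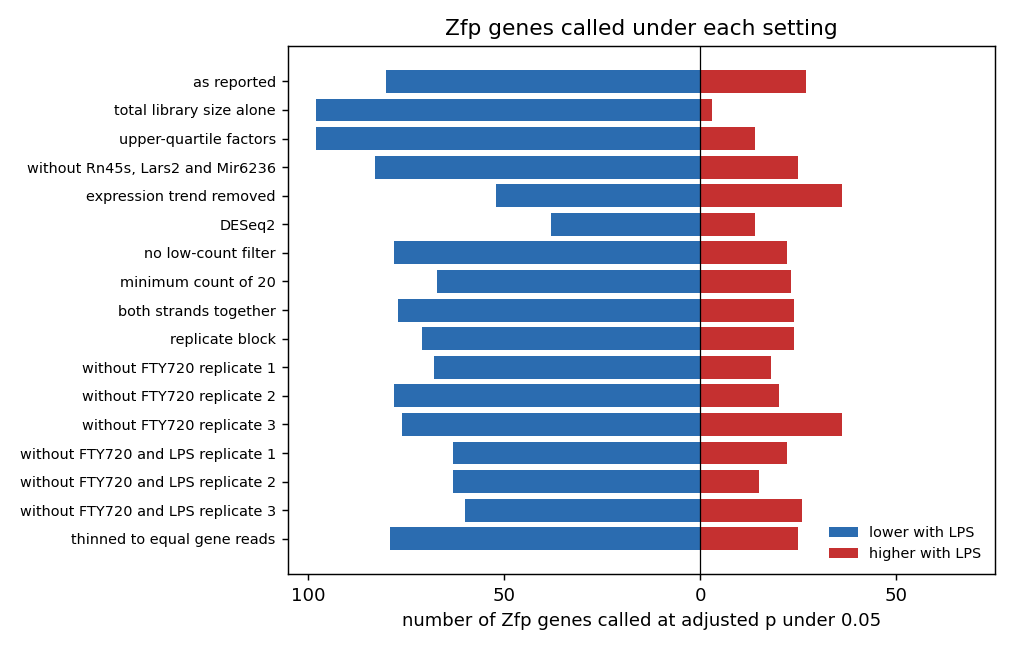
Bars to the left count the Zfp genes called lower and bars to the right those called higher, in the fit as reported and under each of 16 alternatives. In all 17 fits more members were lower than higher, from 38 lower and 14 higher with DESeq2 to 98 lower and 3 higher with total library size. Of all genes tested, 26.6% were lower and 7.57% higher with total library size. With DESeq2 6.42% were lower and 10.3% higher, but of every gene with a read, without the low-count filter. The many weak genes in that count lower its shares, so they cannot be set beside those of the other fits.

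That lower calls outnumbered higher ones held in all 17 fits, but some scalings also shifted all genes that way. With total library size 26.6% of all genes were lower and 7.57% higher, against 38.9% and 1.19% of the members. With upper-quartile factors the shares were 29.3% and 18.6% of all genes, against 38.9% and 5.56% of the members. Total library size as the only scaling moved the median of all genes from -0.04 to -0.35, and upper-quartile factors moved it to -0.17. The members' median differed from that of all genes by -0.25 and -0.24, against -0.24 in the reported fit. These scalings and TMM each apply a single factor per library, which shifts all genes nearly alike. The difference could therefore hardly change between them. With the trend removed, which does not shift all genes alike, the difference was -0.15.

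Some cell type markers also differed between the groups, in both directions. The 14 tested microglial markers had 13 higher and no lower call, with a summed level of 3387 to 3570 CPM with FTY720 and 5310 to 6077 CPM with LPS. Of 8 tested oligodendrocyte lineage markers 7 were lower, summing to 311 to 340 CPM and 167 to 194 CPM. Of 4 tested neuronal markers 3 were lower, summing to 188 to 251 CPM and 107 to 117 CPM. Astrocyte markers summed to 91.4 to 111 CPM and 105 to 144 CPM, with 2 higher and 1 lower of 6, and fibroblast and mural markers to 57.2 to 141 CPM and 105 to 165 CPM, with none called of 5. No marker was at 0 over all libraries. In bulk RNA, fewer cells of a type and less RNA per cell cannot be told apart, and the part of these cells in the Zfp values was not tested.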

How the data were processed

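Reads per gene from 6 directional, ribosomal-RNA-depleted libraries, 3 independent RNA samples per group, were the deposited counts of unique reads on the sense strand. Per the submitters' processing notes, CASAVA 1.8.2, Trimmomatic 0.33, STAR 2.5.1 and DESeq2 were used on mm10; the gene annotation was not given in the sources used here. STAR's counts leave out reads that map to several places, which can lower genes with close copies. The labels do not say whether the RNA samples came from separate cultures or pools, so p-values measure the spread between these samples.

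Counts were tested with edgeR 4.0.16 (limma 3.58.1, R 4.3.3): TMM factors, filterByExpr with a minimum count of 10, glmQLFit, Benjamini-Hochberg adjustment. Standard errors are the log2 fold change over the root of F. DESeq2 1.42.0 was an alternative. The steps were tested on simulated data. The expression trend was removed with a loess curve of span 0.3. Genes were matched by symbol to GENCODE M21 for lengths, positions and translated proteins, and to RefSeq GRCm38.p6 for promoters. Named were the 10 largest rises and falls without overlap, the 8 highest per length, members of known role and those beside the limit, and up to 3 genes of each other list. Members and lists were chosen with earlier results of these data known. Same-numbered libraries were not treated as pairs.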

Additional observations from a re-analysis of the deposited data

Results flagged for a closer look

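In 2 members more than 25% of the reads lay on the strand opposite to the gene, in data that the comparisons do not use. Zfp335 had 155 opposite-strand reads summed over the 6 libraries (28.0% of its reads on both strands), 100 with FTY720 and 55 with LPS, beside 228 and 170 sense reads. It overlaps Pcif1 and Zfp335os on the other strand. Zfp668 had 86 opposite-strand reads (54.4%), 62 with FTY720 and 24 with LPS, beside 34 and 38 sense reads, and it overlaps Zfp646, itself a member. Over all members 1.91% of reads lay on the opposite strand.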

How the results depend on the processing

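The number of members called higher (27) was 3 with total library size, 14 with upper-quartile factors, 14 with DESeq2, and 15 to 36 when each library was left out in turn, 15 without FTY720 and LPS replicate 2, 18 without FTY720 replicate 1 and 36 without FTY720 replicate 3. The number called lower (80) was 52 with the trend removed, 38 with DESeq2 and 60 to 78 without 1 library. All genes had 766 higher calls with total library size and 1274 lower calls with DESeq2. Calls among Zbtb genes (19) came to 8 with DESeq2, and among Zkscan and Zscan genes (7) to 4 with DESeq2 and 4 to 7 without 1 library. Calls among Zc3h genes (7) came to 4 with total library size. Total library size split the members' calls into 3 higher and 98 lower, and upper-quartile factors into 14 and 98. Of all genes, 7.57% were higher and 26.6% lower with the first, and 18.6% and 29.3% with the second. Signs turned for Zfp335 (-0.21 with total library size, -0.031 with upper-quartile factors, -0.042 with both strands, and -0.029 to 0.263 without 1 library, the lowest without FTY720 replicate 3), Zfp445 (-0.22 and -0.00185 with these factors and -0.23 with the trend removed), Zfp830 (-0.22 and -0.0163, and -0.15 to 0.287 without 1 library, the lowest without FTY720 and LPS replicate 1), Zfp869 (-0.21 with total library size), Zfp871 (-0.0865 with the trend removed) and Zfp706 (-0.0663 to 0.0285 without 1 library, above 0 without FTY720 replicate 3 and, at 0.0028, without FTY720 and LPS replicate 1). The cause was not tested. Same-numbered libraries did not deviate together (correlations of -0.02, -0.03 and -0.07), and differently numbered ones ran from -0.05 to 0.06. Such small values do not show whether samples shared a culture or a pool. With a replicate block 24 members were higher and 71 lower. Thinning each library to equal gene reads, chosen after seeing the data, gave 25 higher and 79 lower. Depth limits the weakest members, of which the libraries with LPS held a few reads each.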
